A study of Mus musculus with 12 samples.

Results

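Cholesterol and fatty acid synthesis was followed in mouse kidney through 31 genes, chosen by gene symbol from a list of sterol enzymes, lipogenic enzymes and the regulators of both routes. All 31 were among the 19261 genes of the expression table, and all 31 passed the filter on low counts, which kept 14428 genes. They fall into 17 sterol enzymes, 5 genes for regulators and a sterol carrier, and 9 lipogenic enzymes. RNA was sequenced from kidney tissue of mice whose strain is labelled IRC, in 12 libraries, 3 in each of 4 groups. The busulfan plus AOS group was given the DNA-crosslinking drug busulfan once and then alginate oligosaccharides (AOS, short sugar chains cut from a seaweed polymer) for 5 weeks, at 10 mg/kg. The busulfan group was given busulfan alone, once, at 40 mg/kg, the dose that the labels give for the drug. The AOS group was given AOS alone on the same schedule, and the control group was left untreated. No genetic change, age or sex is given for any group in the sources used here, and neither is the time between busulfan and the collection of the kidneys.

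Cells build cholesterol from acetyl-CoA through mevalonate and squalene, and fatty acids from the same acetyl-CoA through malonyl-CoA. Both routes are switched on by the SREBP transcription factors, which SCAP escorts out of the endoplasmic reticulum when sterols are scarce and INSIG1 holds there when sterols are plentiful. The proximal tubule, the bulk of the kidney cortex, burns fatty acids as fuel, whereas liver and adipose tissue are the main sites of fatty acid synthesis and the adrenal cortex turns cholesterol into steroid hormones.

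Library totals lay between 13875942 and 15329347 estimated counts. All 20 proximal tubule markers had reads in every library. In busulfan replicate 3 all 14 markers of the adrenal gland were at their highest, and their sum was 11858 CPM (counts scaled to the library total) there and 81.7 to 91.6 CPM in the other 11 libraries. Star, the mitochondrial cholesterol carrier of steroid-making cells, stood at 3202 CPM in that library and at 2.83 to 4.96 CPM elsewhere, and Th, of the adrenal medulla, was at 0 in the other 11. Of 15 adipose markers, 11 were highest in busulfan replicate 3 and 2 in busulfan replicate 2. Adipoq, the adipocyte hormone adiponectin, measured 72.1 CPM in busulfan replicate 3, 33.5 CPM in busulfan replicate 2 and at most 4.19 CPM in the other libraries. In busulfan plus AOS replicate 3, 14 of 15 hepatocyte markers were highest, with Alb (serum albumin) at 9526 CPM there and at 8.04 to 181 CPM elsewhere. Busulfan plus AOS replicate 1 was highest for 13 of 18 immediate early genes and for 14 of 18 genes of endoplasmic reticulum stress. The main results that rest on busulfan replicate 3, busulfan replicate 2 or busulfan plus AOS replicate 3 have values without these libraries beside them.

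The promoters of 25 of the 31 genes were found in RefSeq's table for GRCm38.p6 (250 bases before the start site to 50 after it). 3 of them are shown, 1 for each role, because they hold the letters by which these genes are usually recognised: the CCAAT box (CCAAT or ATTGG, bound by NF-Y, a partner of SREBP), the core of the sterol regulatory element (CACCCCA or TGGGGTG) and the E-box CACGTG. Capitals mark every match on either strand. Hmgcs1 lies at chr13:119690101-119690400 on the plus strand, Insig1 at chr5:28071162-28071461 on the plus strand and Fasn at chr11:120824498-120824797 on the minus strand.
Hmgcs1: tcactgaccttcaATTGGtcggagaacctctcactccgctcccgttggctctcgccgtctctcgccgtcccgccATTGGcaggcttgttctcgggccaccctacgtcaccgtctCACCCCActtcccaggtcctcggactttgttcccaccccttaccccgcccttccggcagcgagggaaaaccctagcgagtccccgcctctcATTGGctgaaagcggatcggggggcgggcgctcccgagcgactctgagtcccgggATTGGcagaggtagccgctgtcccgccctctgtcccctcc
Insig1: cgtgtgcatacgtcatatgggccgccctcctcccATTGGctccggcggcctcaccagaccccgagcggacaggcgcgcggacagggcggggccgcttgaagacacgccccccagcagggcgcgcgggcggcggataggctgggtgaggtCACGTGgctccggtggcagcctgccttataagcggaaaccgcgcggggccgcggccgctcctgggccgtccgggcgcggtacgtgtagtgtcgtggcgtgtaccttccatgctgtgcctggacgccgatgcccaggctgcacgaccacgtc
Fasn: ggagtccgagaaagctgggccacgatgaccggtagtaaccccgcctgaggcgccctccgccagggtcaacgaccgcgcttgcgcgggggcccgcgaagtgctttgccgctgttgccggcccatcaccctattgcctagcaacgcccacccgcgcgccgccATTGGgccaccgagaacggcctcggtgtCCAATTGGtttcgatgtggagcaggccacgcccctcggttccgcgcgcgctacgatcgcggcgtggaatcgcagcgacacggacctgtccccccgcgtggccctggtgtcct
The Hmgcs1 window holds 4 CCAAT boxes and 1 sterol core, the Insig1 window 1 CCAAT box and 1 E-box, and the Fasn window 3 CCAAT boxes, a pair of which overlap as CCAATTGG. A CCAAT box was present in 19 of the 25 promoters (76.0%), against 38.4% of the 14265 promoters of genes in the table. The GC box GGGCGG or CCGCCC was also present in 19 of 25 (76.0%), against 54.9% of all promoters. The E-box was found in 4 of 25 (16.0%, all promoters 8.92%): Insig1, Scap, Sc5d and Hsd17b7. The sterol core was found in 3 of 25 (all promoters 8.1%): Hmgcs1, Acat2 and Srebf2. The Fasn window follows the start site of that table, which lies inside the gene record given with its values. A stretch after the start site was looked for in annotated transcripts. It was found for Insig1 and Fasn but not for Hmgcs1, and the reason was not tested. A match describes these letters and not a bound site.

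Compared per length of transcript, in the FPKM values that the authors deposited (fragments scaled to transcript length and library size), the genes spanned from 397 to 2.99 FPKM (means over 12 libraries). Me1, malic enzyme, which supplies NADPH for lipid synthesis, led with 397 ± 62.1 FPKM. Hmgcs1, which condenses acetoacetyl-CoA to HMG-CoA, followed with 242 ± 30.8 FPKM, and Acss2, which makes acetyl-CoA from acetate, with 120 ± 10.8 FPKM (SD, n = 12 each). Acly (ATP citrate lyase) and Scd1 (stearoyl-CoA desaturase) averaged 52.4 ± 30.5 and 58.2 ± 66.7 FPKM, so that the SD of Scd1 exceeded its mean. Scd2, its close relative, averaged 16.6 ± 15.5 FPKM, Fasn (fatty acid synthase) 12.8 ± 9.96 FPKM and Acaca (acetyl-CoA carboxylase, which makes malonyl-CoA) 5.73 ± 3.08 FPKM. The lowest were Elovl6, which lengthens palmitate, at 3.19 ± 1.66 FPKM and Acacb, the mitochondrial acetyl-CoA carboxylase, at 2.99 ± 0.931 FPKM. Me1 and Acss2, which supply the fatty acid route with NADPH and acetyl-CoA, thus stood well above Fasn, Acaca and Elovl6, which build the chain.

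Among the sterol enzymes after Hmgcs1, Nsdhl and Ebp, late steps that remove a methyl group and move a ring double bond, averaged 63.9 ± 5.70 and 50.5 ± 6.89 FPKM. Acat2, the thiolase of the first step, averaged 50.1 ± 4.32 FPKM, Idi1 (isopentenyl diphosphate isomerase) 44.3 ± 22.3 FPKM and Mvd (mevalonate diphosphate decarboxylase) 36.3 ± 2.80 FPKM. From 24.6 to 15.7 FPKM came Msmo1 (methylsterol oxidase), Sqle (squalene epoxidase, 22.1 FPKM), Fdps (farnesyl diphosphate synthase) and Dhcr7, the last step to cholesterol. Below them, from 9.95 to 4.74 FPKM, were Sc5d (a sterol desaturase), Pmvk and Mvk (the mevalonate kinases), Hsd17b7 (a sterol ketone reductase), Fdft1 (squalene synthase), Tm7sf2 (a sterol reductase) and Lss (lanosterol synthase). The regulators lay between 20.9 FPKM for Scap and 10.7 FPKM for Srebf1, with Insig1 at 15.3, Srebf2 at 13.3 and the sterol carrier Stard4 at 13.3 FPKM.

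**Figure D1:**
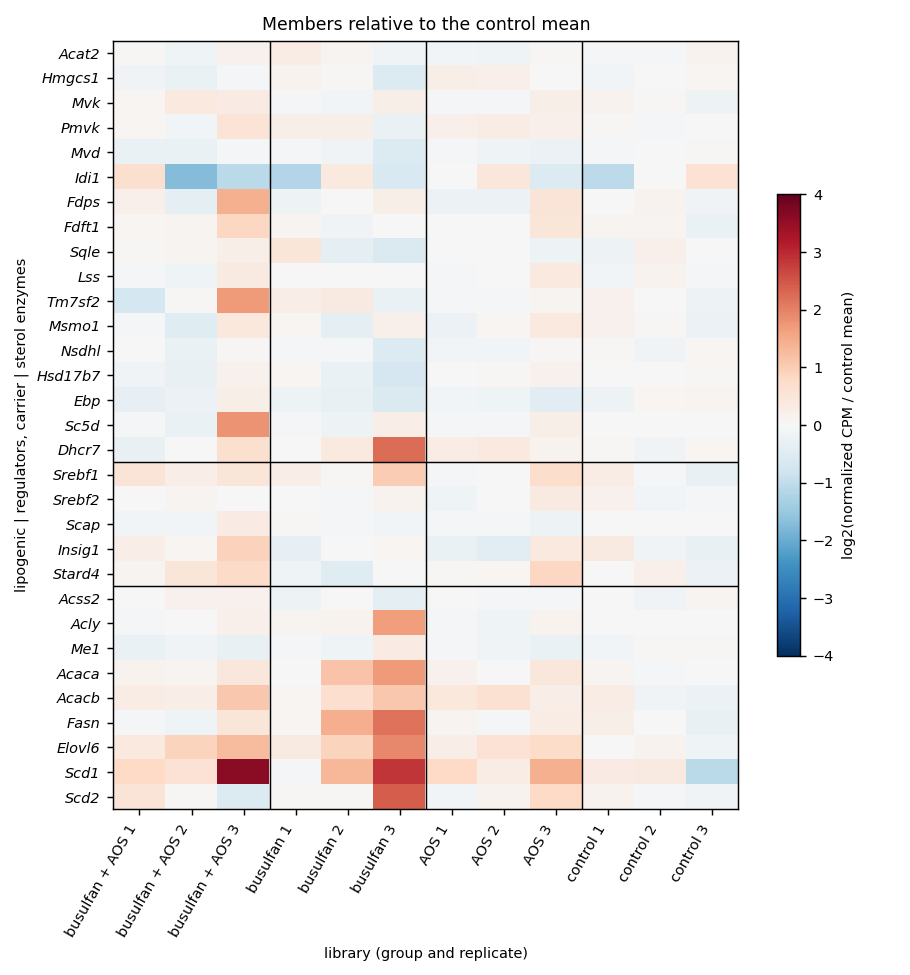
Each gene's level (rows, by role) in each of the 12 libraries (columns) as the log2 ratio of its normalized CPM to the control mean, red above and blue below. Red is deepest in busulfan replicate 3 for 7 of the 9 lipogenic enzymes and for Dhcr7, and in busulfan plus AOS replicate 3 for Scd1, Sc5d, Tm7sf2 and Fdps. Busulfan replicate 2 is red as well for Fasn, Acaca and Scd1, as is AOS replicate 3 for Scd1.

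Within a gene, levels were compared between libraries in normalized CPM. Of the 17 sterol enzymes, 10 stayed within a 2-fold range over all 12 libraries and 5 spanned more than 3-fold (Dhcr7, Tm7sf2, Idi1, Sc5d and Fdps), and the median coefficient of variation within a group was 15.8%. Of the 9 lipogenic enzymes, 2 stayed within a 2-fold range and 6 spanned more than 3-fold, with a median coefficient of variation of 33.2%. The highest library was busulfan replicate 3 for 7 of the 9 lipogenic enzymes, and the same library was lowest for 7 of the 17 sterol enzymes. Busulfan plus AOS replicate 3 was highest for 7 of 17 sterol enzymes and for 11 of all 31 genes. Of the 31 genes, 11 spanned more than 3-fold over the 12 libraries, 3 did so without busulfan replicate 3 and busulfan plus AOS replicate 3, and 2 without busulfan replicate 2 as well. Those 2 were Scd1 (5.68-fold) and Idi1 (5.25-fold). In the 9 libraries that remained, 27 of 31 genes stayed within a 2-fold range, and the median range was 1.52-fold for lipogenic and 1.49-fold for sterol enzymes.

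The first comparison, busulfan against control, addresses the drug on its own. The lipogenic enzymes were the group that stood out in these values: 8 of 9 were higher and their log2 fold changes had a median of 1.12, whereas the sterol enzymes had 8 of 17 higher and a median of -0.00 and the regulators and carrier 2 of 5 and -0.03. Over all genes tested 49% were higher and the median was -0.00. The difference came from 2 of the 3 busulfan kidneys, and no gene of the 31 passed the test. By edgeR's quasi-likelihood test, adjusted over all genes by Benjamini-Hochberg, 0 of 31 had an adjusted p under 0.05, where 0.0416% of all genes did. At an unadjusted p under 0.05 there were 7 of 31, against 10.1% of all genes. DESeq2 called 2 of 31, against 0.873% of all genes. Groups did not overlap for 2 genes in the upward direction (5.72% of all genes) and for 0 in the downward direction (5.63%).

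Fasn, the enzyme that builds palmitate (chr11:120805958-120825166), measured 88.7, 228 and 374 normalized CPM in busulfan kidneys 1, 2 and 3, against 98.2, 85.2 and 68.4 CPM in control kidneys. Busulfan kidneys 2 and 3 lay above all controls and kidney 1 among them, so the groups overlapped. The log2 fold change of Fasn was 1.46 ± 0.41 (SE), and its adjusted p was 0.4163 by edgeR's quasi-likelihood test and 0.02225 by DESeq2. Acaca, the step before, gave the same picture with 36.7, 80.3 and 117 CPM in busulfan kidneys, against 38.5, 34.0 and 35.7 CPM in control kidneys. For Acaca the log2 fold change was 1.12 ± 0.32, and the adjusted p was 0.4163 by edgeR's quasi-likelihood test and 0.04772 by DESeq2. Here too busulfan kidney 1 lay within the control range.

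Elovl6 measured 14.2, 20.8 and 42.2 CPM in busulfan kidneys, against 11.3, 12.3 and 9.97 CPM in control kidneys. All 3 busulfan kidneys lay above all 3 controls, and the log2 fold change was 1.20 ± 0.35 (adjusted p = 0.4163, edgeR's quasi-likelihood test). Acly, chosen after its values were seen, was the other gene without overlap, at 206, 210 and 599 CPM in busulfan kidneys and 190, 188 and 190 CPM in control kidneys. 2 of its busulfan kidneys were only slightly above the controls, and its log2 fold change was 0.84 ± 0.34 (adjusted p = 0.4659, edgeR's quasi-likelihood test). The deposited counts of Acly hold decimals.

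The desaturases, which put a double bond into stearate and palmitate, spread most. Scd1 (chr19:44394450-44407709) measured 91.5, 240 and 687 CPM in busulfan kidneys, against 118, 121 and 44.5 CPM in control kidneys. The log2 fold change of Scd1 was 1.84 ± 0.89 (adjusted p = 0.5174, edgeR's quasi-likelihood test). Scd2 measured 61.9, 61.8 and 318 CPM in busulfan kidneys, against 66.4, 58.1 and 54.7 CPM in control kidneys (log2 fold change 1.30 ± 0.58, adjusted p = 0.489 by edgeR's quasi-likelihood test). For Scd2 a single kidney, busulfan 3, was high, while for Scd1 busulfan kidneys 2 and 3 were. Acacb, whose product restrains fatty acid uptake into mitochondria, measured 19.3, 29.0 and 39.1 CPM in busulfan kidneys, against 22.8, 16.8 and 15.6 CPM in control kidneys (log2 fold change 0.67 ± 0.28, adjusted p = 0.4781 by edgeR's quasi-likelihood test). Acss2 measured 284, 329 and 250 CPM in busulfan kidneys and 333, 302 and 355 CPM in control kidneys, a log2 fold change of -0.20 ± 0.10. Me1 measured 1208, 1130 and 1607 CPM in busulfan kidneys, against 1193, 1315 and 1314 CPM in control kidneys, a log2 fold change of 0.05 ± 0.12. Both ranges overlapped, and these were the smallest log2 fold changes among the 9 lipogenic enzymes.

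**Figure D2:**
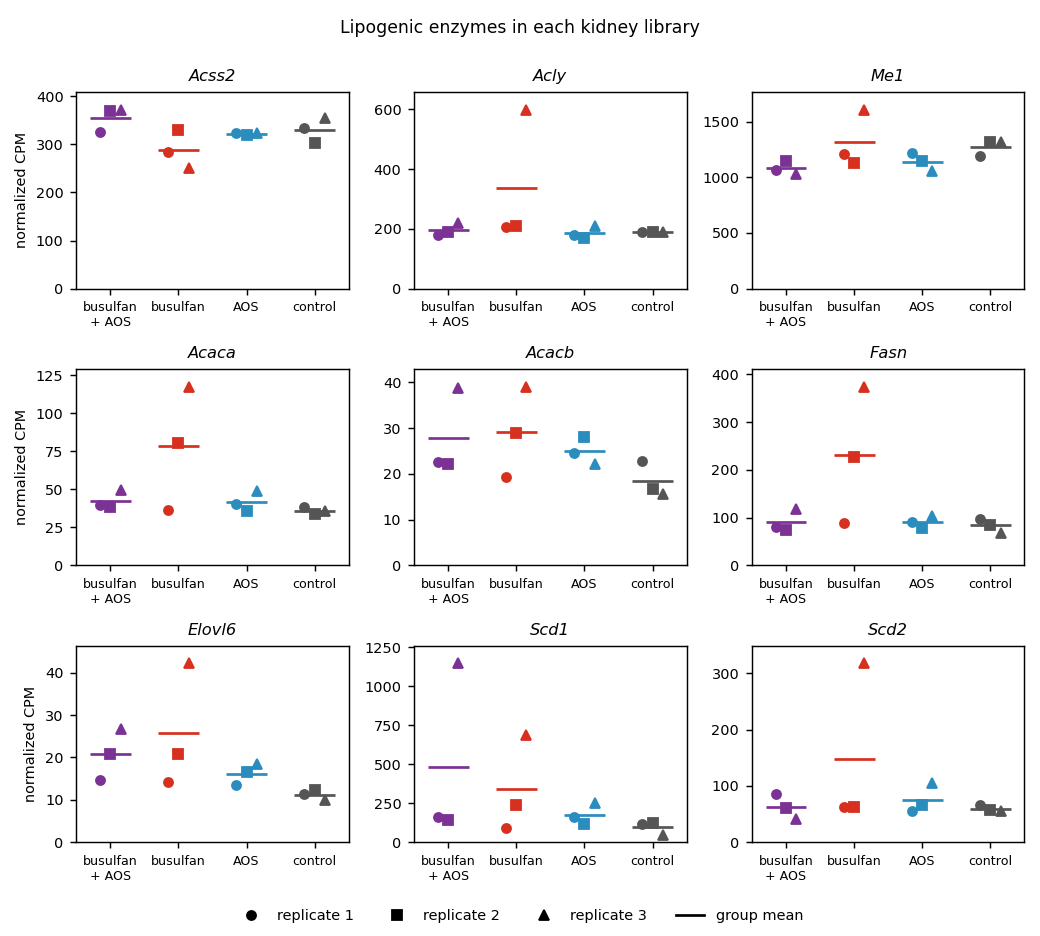
Normalized CPM (vertical axes from 0) of the 9 lipogenic enzymes in each kidney, with the symbol giving the replicate number and the line the group mean (n = 3). Busulfan replicate 3 is the highest point for 7 of the 9 genes, and busulfan replicate 1 lies near the control points in most panels.

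Busulfan replicate 3 was the highest of the 12 libraries in the adipose, the adrenal and the lipogenic sum. The adipose and the lipogenic sum did not go together in every library. Busulfan kidney 1 lay above all controls in the adipose sum (2174 CPM) but was the lowest of the 12 libraries in the lipogenic sum (1974 CPM). AOS replicate 1 had an adipose sum of 2232 CPM and a lipogenic sum of 2088 CPM. Adipose markers summed to 2174 to 2927 CPM in busulfan kidneys, against 1630 to 2095 CPM in control kidneys. Much of that sum was Cd36 and Lpl, which the kidney also expresses, while Ucp1 was at 0 in 8 of the 12 libraries, Cidea in 7, and Plin1 and Lep in 4 each. Adrenal markers summed to 81.7, 89.3 and 11858 CPM in busulfan kidneys 1, 2 and 3, against 84.9 to 89.1 CPM in control kidneys, and proximal tubule markers were lowest in busulfan replicate 3, at 61012 CPM against 75329 to 92615 CPM in the other 11 libraries. Without busulfan replicate 3 the log2 fold change was 0.91 for Fasn, 0.70 for Acaca, 0.65 for Elovl6, 0.81 for Scd1, 0.39 for Acacb, 0.14 for Acly and 0.05 for Scd2, and the lipogenic median was 0.39. With busulfan replicates 2 and 3 both left out, which leaves 1 busulfan kidney assumed to vary like the others, Fasn was at 0.07, Acaca at 0.02, Elovl6 at 0.34, Acly at 0.11 and Scd1 at -0.06, and the lipogenic median was 0.04. Without busulfan replicate 1 edgeR's quasi-likelihood test called both Fasn (1.84, adjusted p = 0.01568) and Acaca (1.45, adjusted p = 0.01035). In bulk tissue, fewer cells of a type and less RNA per cell cannot be told apart.

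**Figure D3:**
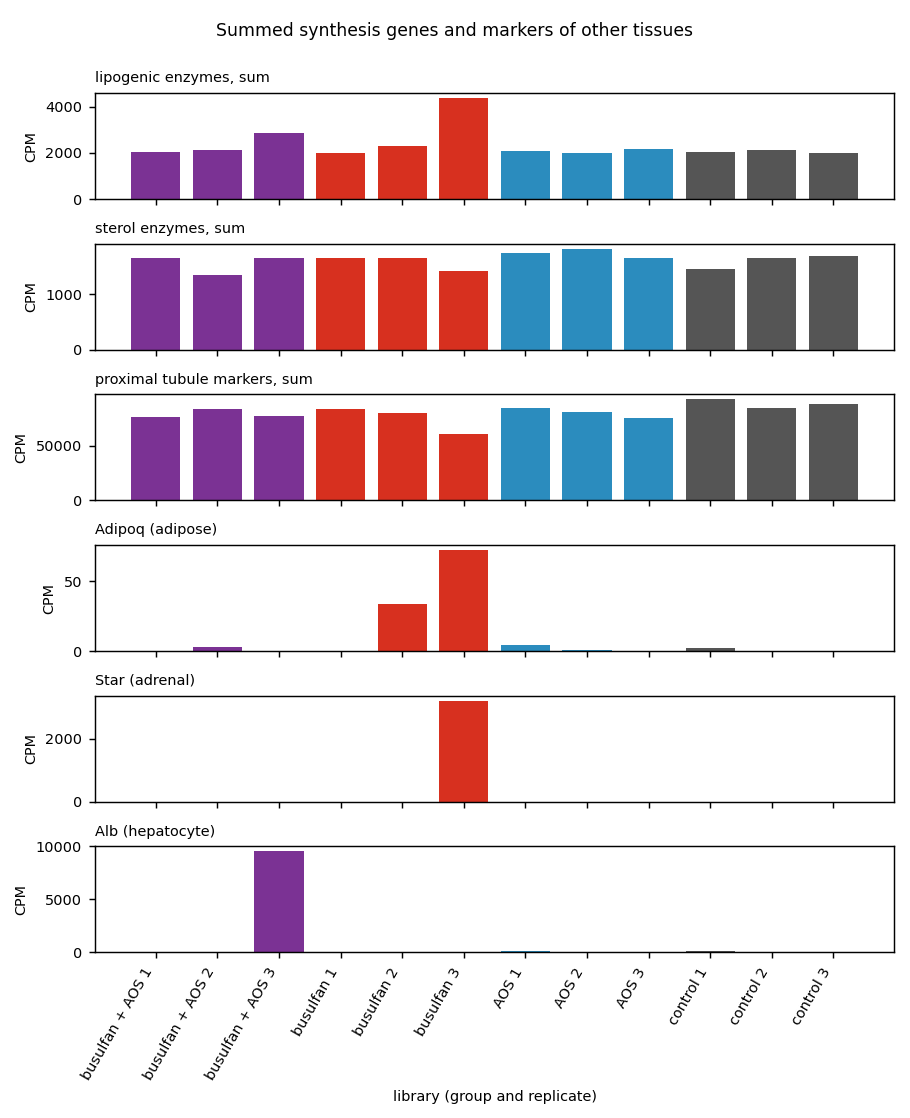
Summed CPM of the lipogenic and the sterol enzymes and of proximal tubule markers, and CPM of Adipoq, Star and Alb, in each of the 12 libraries (bars from 0). The lipogenic sum is highest in busulfan replicate 3 (4378 CPM), the library with Star and the most Adipoq. It is next highest in busulfan plus AOS replicate 3 (2875 CPM), the library with Alb. Much of the sum in that library is Scd1 (1146 normalized CPM), while Scd2 and Me1 are at their lowest there.

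Summed over the 9 lipogenic enzymes, the level was 1974, 2308 and 4378 CPM in busulfan kidneys 1, 2 and 3, against 2021, 2109 and 1999 CPM in control kidneys. The 17 sterol enzymes summed to 1566 ± 137 CPM in busulfan kidneys and 1593 ± 123 CPM in control kidneys (SD, n = 3 each), a difference smaller than either SD. The 5 regulators and carrier summed to 286 ± 46.5 CPM in busulfan kidneys and 266 ± 26.1 CPM in control kidneys.

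Within the sterol route 1 gene departed from the rest. Dhcr7, chosen after its values were seen, measured 25.9, 33.6 and 120 CPM in busulfan kidneys, against 26.6, 23.3 and 27.0 CPM in control kidneys. Its log2 fold change of 1.23 ± 0.48 (adjusted p = 0.4542, edgeR's quasi-likelihood test) was 0.22 without busulfan replicate 3, the library with the adrenal transcripts. Hmgcs1, the entry to the route, measured 914, 855 and 568 CPM in busulfan kidneys, against 768, 848 and 874 CPM in control kidneys. Sqle, which oxidises squalene, measured 81.8, 45.3 and 39.2 CPM in busulfan kidneys, against 50.02, 67.0 and 56.7 CPM in control kidneys. In both genes busulfan replicate 3 was the lowest of all 12 libraries, and busulfan replicate 1 was above all controls.

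Idi1 measured 59.7, 177 and 87.3 CPM in busulfan kidneys, against 65.0, 137 and 202 CPM in control kidneys. Both groups spanned about the same wide range. The counts of Idi1 were never whole, which also held for Acat2, Acly and Tm7sf2. Its chromosome 13 neighbourhood holds the pseudogene Gm9745 and the related Idi2. Whether reads shared with these affect its level was not tested. Of the transcription factors, Srebf1, whose products favour fatty acid genes, measured 42.6, 36.6 and 71.8 CPM in busulfan kidneys, against 43.4, 33.4 and 28.8 CPM in control kidneys (log2 fold change 0.52 ± 0.28, adjusted p = 0.5455 by edgeR's quasi-likelihood test). Srebf2, whose product favours sterol genes, measured 61.2, 59.2 and 67.1 CPM in busulfan kidneys, against 69.0, 57.4 and 57.6 CPM in control kidneys. For Srebf1 busulfan replicate 3 alone was above the controls (log2 fold change 0.17 without it), and for Srebf2 the groups were interleaved.

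**Figure D4:**
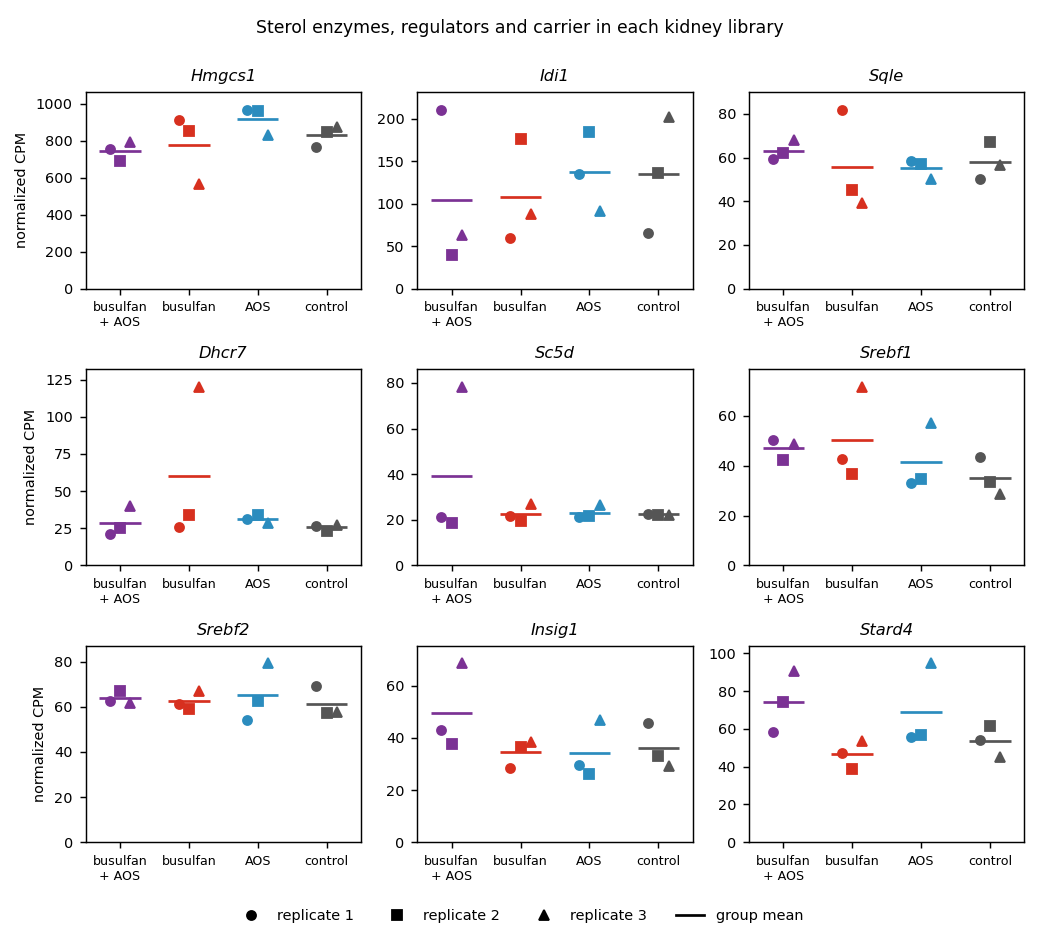
Normalized CPM (vertical axes from 0) of sterol enzymes, regulators and the carrier Stard4 in each kidney, with the symbol giving the replicate number and the line the group mean (n = 3). Single kidneys stand off for Dhcr7 (busulfan replicate 3) and Sc5d (busulfan plus AOS replicate 3), Idi1 spreads widely in every group, and Srebf2 hardly at all.

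Busulfan plus AOS against AOS addresses the drug in animals that also received the oligosaccharide, and uses none of the libraries of the preceding comparison. The lipogenic enzymes did not stand out there: 6 of 9 were higher, the median log2 fold change was 0.08, and Fasn and Acaca were level between the groups. The sterol enzymes had 8 of 17 higher and a median of -0.01, and the regulators and carrier 4 of 5 and 0.17, where 51% of all genes were higher with a median of 0.00. EdgeR's quasi-likelihood test called 0 of 31 genes (0.0693% of all genes). There were 0 of 31 at an unadjusted p under 0.05 (9.16%) and 0 in DESeq2 (0.626%). Groups did not overlap for Sqle and Acss2 upward (8.49% of all genes) and for Hmgcs1 downward (8.7%).

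Fasn measured 79.7, 73.8 and 118 CPM in busulfan plus AOS kidneys, against 90.9, 78.9 and 104 CPM in AOS kidneys, a log2 fold change of -0.01 ± 0.40. Acaca measured 39.5, 38.6 and 49.6 CPM in busulfan plus AOS kidneys, against 40.6, 36.0 and 49.0 CPM in AOS kidneys. In both genes the groups lay on top of each other. Elovl6 measured 14.7, 20.9 and 26.7 CPM in busulfan plus AOS kidneys, against 13.5, 16.6 and 18.5 CPM in AOS kidneys, with a log2 fold change of 0.36 ± 0.35 (adjusted p = 0.8034, edgeR's quasi-likelihood test). Acly measured 178, 190 and 220 CPM in busulfan plus AOS kidneys, against 178, 169 and 209 CPM in AOS kidneys. Here too the ranges overlapped.

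Scd1 reached its highest level of all in busulfan plus AOS replicate 3: the group measured 165, 143 and 1146 CPM, against 163, 115 and 253 CPM in AOS kidneys. Scd2 went the other way in the same library, at 85.4, 61.2 and 41.1 CPM in busulfan plus AOS kidneys, against 55.4, 65.5 and 105 CPM in AOS kidneys. The 2 desaturases were thus highest in different libraries, Scd1 in the library with the hepatocyte transcripts (231 FPKM, with Scd2 at 7.34 FPKM) and Scd2 in the library with the adrenal and the most adipose transcripts (64.8 FPKM, with Scd1 at 158.5 FPKM). The log2 fold change of Scd1 was 1.45 ± 0.88 (adjusted p = 0.658, edgeR's quasi-likelihood test) and -0.20 without busulfan plus AOS replicate 3.

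Sc5d followed the same library, at 21.2, 18.5 and 78.4 CPM in busulfan plus AOS kidneys, against 21.2, 21.7 and 26.3 CPM in AOS kidneys. Its log2 fold change was 0.77 ± 0.44 (adjusted p = 0.6433, edgeR's quasi-likelihood test) and -0.22 without replicate 3. Fdps and Tm7sf2, chosen after their values were seen, also peaked in that library, with Fdps at 19.9, 13.7 and 46.5 CPM in busulfan plus AOS kidneys, against 14.7, 14.9 and 24.97 CPM in AOS kidneys. Tm7sf2 measured 3.95, 6.72 and 21.0 CPM in busulfan plus AOS kidneys, against 6.13, 6.16 and 6.99 CPM in AOS kidneys. The log2 fold changes were 0.55 ± 0.38 for Fdps and 0.71 ± 0.48 for Tm7sf2, and -0.12 and -0.27 without replicate 3. Insig1, the sterol-sensing anchor of SCAP and itself an SREBP target, measured 42.9, 37.8 and 68.6 CPM in busulfan plus AOS kidneys, against 29.7, 26.0 and 47.0 CPM in AOS kidneys. Its log2 fold change was 0.54 ± 0.28 (adjusted p = 0.6064, edgeR's quasi-likelihood test) and 0.24 without that replicate. Hepatocyte markers summed to 3099, 2539 and 19989 CPM in busulfan plus AOS kidneys 1, 2 and 3, against 2319 to 3048 CPM in AOS kidneys. The largest part of that sum outside replicate 3 was Cyp2e1, which the kidney also expresses, and Cps1 was at 0 in 6 of the 12 libraries. The part of these transcripts in the levels of the other sterol genes was not tested.

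Hmgcs1 was the one sterol gene whose groups parted downward, at 754, 692 and 794 CPM in busulfan plus AOS kidneys, against 967, 958 and 832 CPM in AOS kidneys. The log2 fold change was -0.30 ± 0.15 (adjusted p = 0.6057, edgeR's quasi-likelihood test). Without busulfan plus AOS replicate 3 it was -0.35. Sqle, further down the route, measured 59.4, 62.1 and 68.0 CPM in busulfan plus AOS kidneys, against 58.5, 57.2 and 50.4 CPM in AOS kidneys. The gap between the groups was under 1 CPM, and the log2 fold change was 0.19 ± 0.23. Idi1 measured 211, 40.1 and 63.5 CPM in busulfan plus AOS kidneys, against 135, 185 and 92.0 CPM in AOS kidneys.

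Set beside each other, the 2 busulfan comparisons share no library. Between them 11 genes were higher in both, 6 were lower in both and 14 differed in direction.

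**Figure D5:**
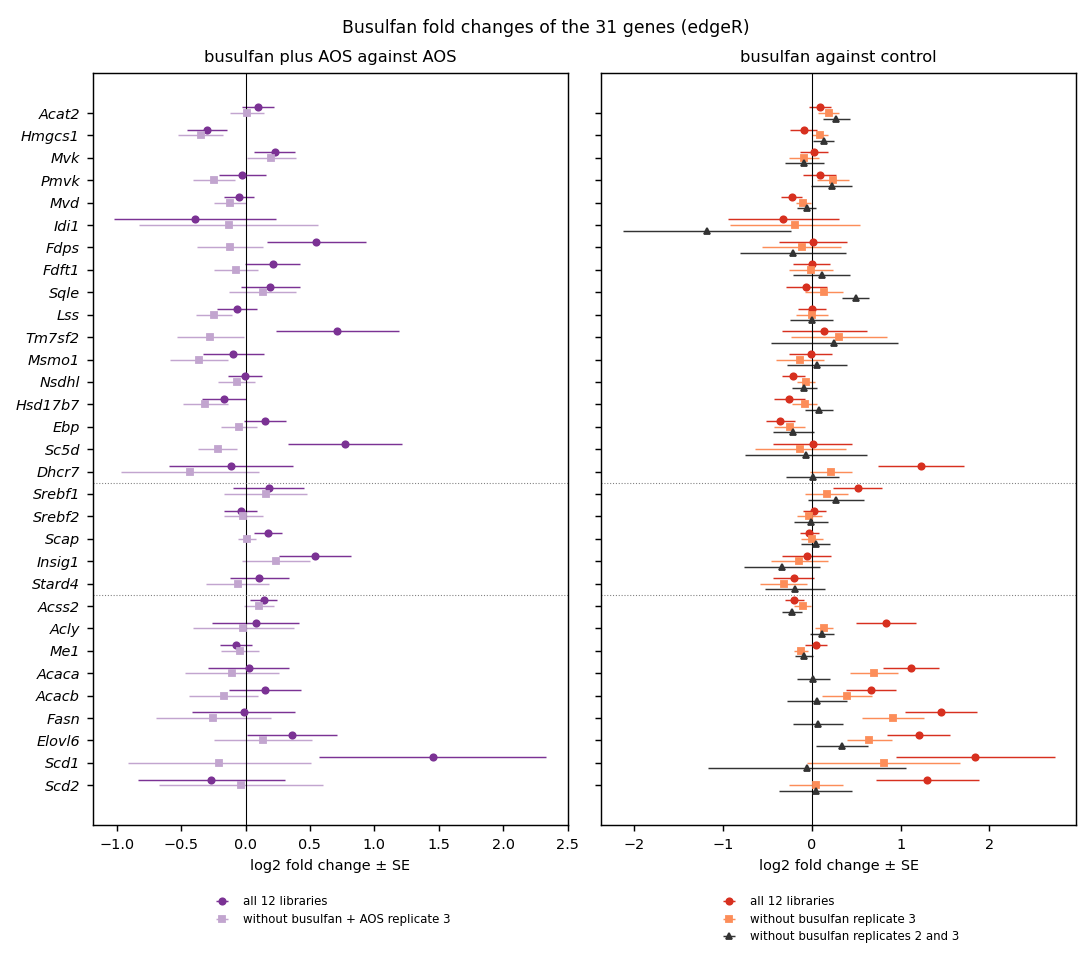
Log2 fold changes with SE of the 31 genes (edgeR), for busulfan plus AOS against AOS (left) and busulfan against control (right), with all 12 libraries and without the libraries that hold transcripts of other tissues. The lipogenic points right of 0 in the right panel move to near 0 without busulfan replicates 2 and 3, where the median was 0.04, and those of Scd1, Sc5d, Tm7sf2 and Fdps in the left panel move to below 0 without busulfan plus AOS replicate 3.

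Averaged over mice with and without AOS (6 busulfan-treated kidneys against 6), 7 of 9 lipogenic enzymes were higher (median log2 fold change 0.52), and so were 9 of 17 sterol enzymes (median 0.03). EdgeR's quasi-likelihood test called 0 of 31 genes (0.194% of all genes). There were 4 at an unadjusted p under 0.05 (12.1%) and 0 in DESeq2 (1.57%). The lowest adjusted p was that of Elovl6, 0.3181, at a log2 fold change of 0.78 ± 0.25. Scd1 had 1.65 ± 0.63 and Fasn 0.72 ± 0.28, with an adjusted p of 0.364 for Scd1 and 0.3774 for Fasn by edgeR's quasi-likelihood test. Without busulfan replicate 1, Fasn (0.91, adjusted p = 0.04252) and Acaca (0.74, adjusted p = 0.02457) were called. Scd1 stood at 0.83 without busulfan plus AOS replicate 3, at 1.13 without busulfan replicate 3 and at 0.30 without both, and Elovl6 at 0.50 without busulfan replicate 3. With busulfan replicates 2 and 3 left out Fasn was at 0.03 and Scd1 at 0.70, and the lipogenic median was 0.03. The sterol median was -0.10 without busulfan plus AOS replicate 3.

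AOS against control addresses the oligosaccharide on its own. The genes lay close together in the 2 groups: 11 of 17 sterol enzymes, 3 of 5 regulators and carrier and 6 of 9 lipogenic enzymes were higher, with median log2 fold changes of 0.05, 0.09 and 0.22, where 51% of all genes were higher with a median of 0.00. EdgeR's quasi-likelihood test called 0 of 31 (0% of all genes). There were 0 at an unadjusted p under 0.05 (3.59%) and 0 in DESeq2 (0.0704%). Groups did not overlap for Elovl6, Pmvk and Dhcr7 upward (6.17% of all genes) and for Scap downward (6.75%).

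Elovl6 measured 13.5, 16.6 and 18.5 CPM in AOS kidneys, against 11.3, 12.3 and 9.97 CPM in control kidneys, a log2 fold change of 0.53 ± 0.35 (adjusted p = 1, edgeR's quasi-likelihood test). Acacb measured 24.6, 28.1 and 22.3 CPM in AOS kidneys, against 22.8, 16.8 and 15.6 CPM in control kidneys, a log2 fold change of 0.44 ± 0.28. Control kidney 1 fell just inside the AOS range. Stard4, a carrier that moves cholesterol between membranes, measured 55.5, 57.0 and 94.7 CPM in AOS kidneys, against 53.9, 61.7 and 45.2 CPM in control kidneys. The log2 fold change of Stard4 was 0.37 ± 0.23, and 0.07 without AOS replicate 3, its highest library. Scd1 measured 163, 115 and 253 CPM in AOS kidneys and 118, 121 and 44.5 CPM in control kidneys, groups that overlapped.

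Summed by role, the sterol enzymes reached 1730 ± 84.1 CPM in AOS kidneys and 1593 ± 123 CPM in control kidneys. The lipogenic enzymes summed to 2091 ± 88.3 CPM in AOS kidneys and 2043 ± 58.3 CPM in control kidneys (SD, n = 3 each). The lipogenic difference was smaller than the spread in AOS kidneys.

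Busulfan plus AOS against busulfan addresses the oligosaccharide given after the drug. The lipogenic enzymes were mostly lower, 7 of 9 of them, with a median log2 fold change of -0.31, while 13 of 17 sterol enzymes and 4 of 5 regulators and carrier were higher, with medians of 0.15 and 0.07. These medians turned on single libraries. The lipogenic median was 0.02 without busulfan replicate 3, 0.22 without busulfan replicates 2 and 3 and -0.89 without busulfan plus AOS replicate 3, and the sterol median was 0.0048 without busulfan replicate 3 and -0.07 without busulfan plus AOS replicate 3. Over all genes tested 47.8% were higher and the median was -0.01. EdgeR's quasi-likelihood test called 0 of 31 (0% of all genes). There were 6 at an unadjusted p under 0.05 (8.69%) and 0 in DESeq2 (0.169%). Groups did not overlap for Stard4 upward (4.2% of all genes) and for 0 genes downward (4.19%).

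Fasn measured 79.7, 73.8 and 118 CPM in busulfan plus AOS kidneys, against 88.7, 228 and 374 CPM in busulfan kidneys. The log2 fold change was -1.35 ± 0.41 (adjusted p = 0.4774, edgeR's quasi-likelihood test), and with busulfan replicates 2 and 3 left out it was 0.03. Acaca had -0.88 ± 0.32 (adjusted p = 0.5004, edgeR's quasi-likelihood test) and 0.22 without those replicates. Both turned on the 2 busulfan kidneys with the most adipose transcripts. The adipose sums were 1326 to 1574 CPM in busulfan plus AOS kidneys and 2174, 2563 and 2927 CPM in busulfan kidneys 1, 2 and 3. In busulfan kidney 1 that sum was mostly Cd36 (1282.5 CPM) and Lpl (842.7 CPM). Adipoq measured 0.0678, 33.5 and 72.1 CPM in busulfan kidneys 1, 2 and 3, and 0, 3.17 and 0.275 CPM in busulfan plus AOS kidneys. The part of adipose transcripts in the difference was not tested.

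Acss2 measured 325, 369 and 372 CPM in busulfan plus AOS kidneys, against 284, 329 and 250 CPM in busulfan kidneys, a log2 fold change of 0.30 ± 0.10 (adjusted p = 0.4774, edgeR's quasi-likelihood test). 1 busulfan kidney lay within the other group's range, and the log2 fold change was 0.21 without busulfan replicate 3. Stard4 measured 58.4, 74.3 and 90.5 CPM in busulfan plus AOS kidneys, against 47.4, 38.6 and 53.6 CPM in busulfan kidneys. All 3 busulfan plus AOS kidneys lay above all busulfan kidneys, and the log2 fold change was 0.68 ± 0.23 (adjusted p = 0.4774, edgeR's quasi-likelihood test). Without busulfan plus AOS replicate 3 it was 0.50. Me1 measured 1070, 1151 and 1029 CPM in busulfan plus AOS kidneys, against 1208, 1130 and 1607 CPM in busulfan kidneys, a log2 fold change of -0.28 ± 0.12 (adjusted p = 0.5658, edgeR's quasi-likelihood test) and -0.11 without busulfan replicate 3.

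Averaged over mice with and without busulfan (6 AOS-treated kidneys against 6), edgeR's quasi-likelihood test called 0 of 31 genes (0% of all genes). There were 2 at an unadjusted p under 0.05 (5.77%) and 0 in DESeq2 (0.148%). The sterol enzymes had 13 of 17 higher and a median log2 fold change of 0.07, and the lipogenic enzymes 4 of 9 with a median of -0.22. The lipogenic median was 0.09 without busulfan replicate 3 and 0.18 without busulfan replicates 2 and 3, and the sterol median was 0.0019 without busulfan plus AOS replicate 3. Stard4 had the lowest p, at 0.52 ± 0.16, followed by Me1 at -0.22 ± 0.09 and Fasn at -0.61 ± 0.28 (adjusted p = 0.8513 each, edgeR's quasi-likelihood test). With busulfan replicates 2 and 3 left out Fasn was at 0.08, and without busulfan replicate 3 Me1 was at -0.13.

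Whether the drug's effect differed with AOS was tested as the interaction, the busulfan fold change with AOS minus that without. EdgeR's quasi-likelihood test called 0 of 31 genes (0% of all genes). There were 3 at an unadjusted p under 0.05 (5.89%) and 0 in DESeq2 (0.0774%). 1 of 9 lipogenic enzymes was above 0, with a median of -0.76, and 11 of 17 sterol enzymes with a median of 0.18. The lowest p belonged to Fasn at -1.47 ± 0.57, Acaca at -1.09 ± 0.45 and Acss2 at 0.34 ± 0.15 (adjusted p = 0.7933 each, edgeR's quasi-likelihood test). The lipogenic median was -0.24 without busulfan replicate 3 and 0.01 without busulfan replicates 2 and 3, where Fasn was at -0.09 and Acaca at 0.0036. The sterol median was -0.08 without busulfan plus AOS replicate 3.

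Of the other genes of the pathways, 0 of 20 for sterol handling (uptake, export, storage) and 0 of 20 for fatty acid handling had an adjusted p under 0.05 in edgeR's quasi-likelihood test in any comparison, where 0% to 0.194% of all genes did. In busulfan against control 11 of 20 were higher in each list, with median log2 fold changes of 0.03 and 0.07, and 2 and 1 had an unadjusted p under 0.05, at or below the 10.1% of all genes. Scarb1, the receptor that takes up cholesterol ester from HDL, measured 7.60, 10.3 and 581 CPM in busulfan kidneys, against 5.96, 8.24 and 6.26 CPM in control kidneys. Soat1, which esterifies cholesterol for storage and was chosen after its values were seen, measured 46.3, 37.8 and 208 CPM in busulfan kidneys, against 38.7, 40.0 and 36.4 CPM in control kidneys. Both were high in 1 kidney, busulfan 3, the library with the adrenal transcripts. Thrsp, a nuclear protein of lipogenic tissues, measured 0.898, 25.9 and 47.3 CPM in busulfan kidneys, against 4.22, 0.723 and 0.437 CPM in control kidneys, and 26.0 CPM in busulfan plus AOS replicate 3, against 1.11 to 2.89 CPM in AOS kidneys. Busulfan replicates 2 and 3 also held the high Fasn and Acaca values. Busulfan plus AOS replicate 3 was, in normalized CPM, the highest of the 12 libraries for Scd1 and Acss2 and the lowest for Scd2 and Me1.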

How the data were processed

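RNA from mouse kidney was sequenced in 12 libraries, 3 in each of 4 groups, with group and replicate taken from the sample titles. Per the file headers the authors deposited read counts, which are estimated counts: 76.8% to 78.8% were whole within 0.005, and 5 of the 31 genes (Acat2, Acly, Fdft1, Idi1, Tm7sf2) held decimals. Beside them the authors deposited expression values taken as FPKM, since their ratio to count and library total varied by a median 0.502% between libraries over 4517 genes. The submitters' processing notes name mm10, which aligner and counter were run is not given in the sources used here, and 8 deposited columns of group means were not used.

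Counts were rounded, filtered with filterByExpr and scaled by TMM. All 12 libraries entered 1 edgeR 4.0.16 quasi-likelihood fit (R 4.3.3) with a mean per group, 8 residual degrees of freedom and 7 contrasts, and Benjamini-Hochberg adjustment over 14428 genes at 0.05. Standard errors are the log2 fold change over the root of its F value. Levels within a gene are normalized CPM, list sums are CPM of the library total, and a count of 3 equals 0.196 to 0.216 CPM. The common biological coefficient of variation was 26.8%. The labels do not say that libraries came from separate animals, so p-values reflect only how these samples vary, which may be technical. The 2 most alike libraries of a group, AOS 1 and 2, differed by more than counting noise (mean chi-square 5.36 per gene), so none was treated as a repeat.

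Replicate numbers do not pair the libraries by the labels. Alternatives were DESeq2 1.42.0, other scalings and filters, limma 3.58.1 on log2(FPKM + 1) or log2(FPKM + 0.1), a replicate block, fits of the compared groups alone, a threshold of 0.1, and libraries left out. The fit was tested on simulated data. Genes and lists were chosen with earlier results of these data known. Library values are given for the 3 genes of lowest p in each comparison and for set anchors of each role (Hmgcs1, Sqle, Idi1, Insig1, Srebf1, Srebf2, Fasn, Scd1, Scd2, Acacb, Stard4), and up to 4 genes of each other list were eligible by lowest p in the average busulfan effect. Positions and promoters are from RefSeq's GRCm38.p6 annotation, counted from 1, and were matched by gene identifier.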

Additional observations from a re-analysis of the deposited data

How the results depend on the processing

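The limit of these results is the number of libraries, 3 a group, which the labels do not describe as separate animals. Single libraries also hold transcripts of other tissues, and 1 library often set a value. Of 165 recomputed counts of called genes, 162 were as reported. The exceptions were 2 genes called in busulfan against control by DESeq2 (Fasn and Acaca), and 0 to 2 with 1 library left out in that comparison and in the average busulfan effect, the 2 arising without busulfan replicate 1. The spread between replicates, with all 12 libraries in, was 0.125 log2 for the median of the 31 genes, 0.428 for the lipogenic and 0.168 for the sterol median. A lipogenic median could thus change sign within its spread, as in the average AOS effect, from -0.27 to 0.18 over the settings. Of 158 recomputed medians of the 31 genes, 152 moved by less than this spread, and of 316 medians of the lipogenic or the sterol enzymes 303 did. The other 13 all came from leaving out busulfan replicate 3, busulfan replicates 2 and 3, busulfan plus AOS replicate 3 or the adrenal and the hepatocyte library. With 1 library left out, the lipogenic median ranged from -0.89 to 0.018 in busulfan plus AOS against busulfan, from -0.27 to 0.088 in the average AOS effect and from -1.08 to -0.24 in the interaction, and the sterol median from -0.071 to 0.24, from 0.0019 to 0.15 and from -0.078 to 0.27 in these. The sterol median ranged from -0.057 to 0.10 in AOS against control and from -0.10 to 0.072 in the average busulfan effect. In busulfan plus AOS against AOS the median of the 31 genes ranged from -0.075 to 0.13 with 1 library left out and was -0.075 without the adrenal and the hepatocyte library together. In busulfan plus AOS against busulfan it ranged from -0.11 to 0.18 and was -0.073 without both. For the interaction it ranged from -0.14 to 0.11, with 0.11 without busulfan plus AOS replicate 2 and 0.08 without AOS replicate 3. Directions turned for 11 of 758 recomputed fold changes of named genes, none of them called. Without busulfan replicates 2 and 3 these were Scd1 in busulfan against control (-0.056), Fasn (0.031) and Acaca (0.22) in busulfan plus AOS against busulfan, Fasn in the average AOS effect (0.075) and Acaca in the interaction (0.0036). With 1 library left out, busulfan plus AOS against AOS ranged from -0.22 to 1.11 for Sc5d and from -0.20 to 1.89 for Scd1, and busulfan plus AOS against busulfan from -1.15 to 1.55 for Scd1, each negative without busulfan plus AOS replicate 3. Leaving out the adrenal and the hepatocyte library gave -0.22, -0.20 and -0.11 for these same values. The cause was not tested. Same-numbered libraries did not deviate together (18 pairs, 4 with r over 0.1, median r 0.02, 4 of 12 libraries closest to their own number). With the replicate block 0 genes were called in every comparison, and the log2 fold change of Fasn in busulfan against control was 1.31.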
